A study of Mus musculus with 70 samples.

Results

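The genes described here encode the proteins of the cytosolic ribosome as measured in dorsal root ganglia (DRGs) of the mouse, where the cell bodies of sensory neurons sit. Members were all array probes whose gene symbol is Rpl or Rps with a number and an optional a, l, x or l1 suffix, together with Rplp0, Rplp1, Rplp2 and Rpsa. Kinases of the Rps6k family and pseudogenes were left out. The rule found 80 probes of 62 genes among the 25697 probes and 16593 gene symbols of the array. Of these genes, 22 encode small-subunit proteins, 35 encode large-subunit proteins, and 5 are paralogs with an l or l1 suffix (Rpl22l1, Rpl39l, Rpl3l, Rpl7l1 and Rps27l). Ribosomal protein genes under other symbols, such as Fau and Rpl36al, are not members.

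The cytosolic ribosome translates nuclear-encoded mRNAs. Its small subunit binds the mRNA and decodes it, and its large subunit joins the amino acids and holds the exit tunnel for the growing chain. The mRNAs of most ribosomal proteins begin with a cytosine followed by a run of pyrimidines, the 5′ terminal oligopyrimidine (TOP) motif, through which mTOR signalling governs their translation. Regrowth of cut sensory axons depends on protein synthesis, part of it by ribosomes within the axon.

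The study measured total RNA from ganglia of 9 mouse strains, labelled CAST, WSB, NZO, NOD, DBA, C57, C3H, AJ and 129, on 1-colour Illumina arrays. In each strain uninjured (NAIVE) ganglia were compared with injured ganglia labelled AX5D. This label was taken to mean 5 days after axotomy, the cutting of the axon. Each array held RNA of 6 ganglia pooled from 3 mice, and the labels call the replicates biologically distinct. There were 35 naive and 35 axotomy arrays in 18 groups, 16 of 4 arrays and 2, both of AJ, of 3. The labels give no age, sex, nerve or genetic modification for any group.

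Each array had 13147 to 14721 probes above background (detection p under 0.05), and no 2 arrays were identical. A probe was kept if it was above background on at least 3 arrays, which left 17616 probes. All 9 DRG neuron markers on the array were kept, and their median naive level was 13.66 on the log2 scale. The summed linear level of the 8 macrophage markers ran from 972 to 2805 in naive and from 5001 to 13642 in axotomy arrays. All 8 macrophage markers and all 4 fibroblast markers rose, with median log2 differences of 2.24 and 0.55. Of the 9 neuron markers 2 rose and 6 fell (median −0.30). Their summed level was 95484 to 125092 naive and 87171 to 108378 after axotomy. The part of these shifts in the ribosomal protein values was not tested, and in whole ganglia a change in cell numbers cannot be told apart from a change in RNA per cell.

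Of the 80 member probes, 68 from 56 genes were kept, and 58 were above background on all 70 arrays. The 12 others were above background on 2 arrays or fewer. They included the only probes of Rpl14, Rpl17, Rpl39l, Rpl6, Rplp2 and Rps23, for which nothing further can be said here. The others were extra probes of Rpl23, Rpl37, Rpl4, Rplp0 and Rpsa. A kept gene with several probes is represented below by its brightest probe unless another is named.

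The promoter sequences of 6 members are shown because they bear the start of the mRNA, where a TOP motif lies. They are taken from RefSeq (build GRCm38.p6), 5′ to 3′ on the gene's strand, from 50 bases before the annotated start to 30 bases from it onward. Capitals mark runs of at least 6 pyrimidines (C or T) within 20 bases of the start. Rpl24, Rpl35, Rpl12 and Rps26 are among the genes that rose most after axotomy, Rps6 is the ribosomal target of the S6 kinases, and Rpl41 is 1 of the 2 genes that fell.
Rpl24 (chr16:55966225-55966304, plus strand): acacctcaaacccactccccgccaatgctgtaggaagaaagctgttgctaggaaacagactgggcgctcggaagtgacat
Rpl35 (chr2:39005102-39005181, minus strand): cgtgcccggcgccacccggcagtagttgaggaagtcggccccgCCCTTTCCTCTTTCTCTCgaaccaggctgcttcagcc
Rpl12 (chr2:32961662-32961741, plus strand): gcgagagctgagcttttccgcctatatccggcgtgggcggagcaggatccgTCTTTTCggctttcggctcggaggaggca
Rps26 (chr10:128626477-128626556, minus strand): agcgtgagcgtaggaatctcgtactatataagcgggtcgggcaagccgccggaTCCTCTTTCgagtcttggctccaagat
Rps6 (chr4:86857338-86857417, minus strand): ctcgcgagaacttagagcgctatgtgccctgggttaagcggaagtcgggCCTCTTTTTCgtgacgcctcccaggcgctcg
Rpl41 (chr10:128549139-128549218, minus strand): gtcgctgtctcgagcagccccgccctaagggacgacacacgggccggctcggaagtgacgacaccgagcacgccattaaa
Rpl35, Rpl12, Rps26 and Rps6 held such a run at the start, and Rpl24 and Rpl41 did not.

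A promoter entry was found for 53 of the 62 genes, each 250 bases before and 50 bases after the start, and the first entry of a gene was used. A pyrimidine run within 20 bases of the start was present in 34 of the 53 (64.2%), against 37.5% of all 32851 promoter entries. The sequence CCGGAAG, the core bound by ETS factors, lay on either strand of 20 member promoters (37.7%), against 8.86% of all entries. AAGATGG, the core bound by YY1, was found in 9 (17.0% against 6.34%). GGGCGG, the core bound by SP1, was found in 32 (60.4% against 35.7%). TATAAA, the sequence of a TATA box, was found in 5 (9.43% against 13.6%), and the E-box CACGTG in 5 (9.43% against 7.15%). Apart from the pyrimidine run, motifs were searched on either strand over the whole entry, before and after the start. No motif contains another, but a pyrimidine run, read on the strand of the gene, can overlap the reverse strand of CCGGAAG. A match is a description of the letters only. Of the 30 genes with an entry that rose after axotomy, 21 held the pyrimidine run, as did 13 of the other 23. Those 23 are not all genes tested without a rise. They include Rpl14, Rpl39l, Rpl6, Rplp2 and Rps23, which had no kept probe, and each of these held the run. Whether the run goes with the rise was not tested. For 10 of the 53 genes, among them Rps2, Rps27l and Rpl19, the entry used does not begin at the annotated start of the gene, and 8 of these 10 held the run. Of the 43 genes whose entry begins there, 26 held it (60.5%), 16 of the 24 that rose and 10 of the other 19. The 19 again include Rpl14, Rpl6, Rplp2 and Rps23, for which no response could be read.

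After axotomy the cytosolic ribosomal protein genes were more often higher than lower, by small amounts. As a mean over the 9 strains, 39 of the 68 member probes (57.4%) rose and 2 (2.94%) fell. Among all 17616 probes 26.4% rose and 33% fell. By gene, 33 of 56 rose, 2 fell and 21 did not pass the test. The median log2 difference of the 56 genes was 0.12, with a range from −0.16 to 0.67, against a median of −0.04 over all probes. The 634 probes at or above the members' median level, members among them, had a median of −0.02. With arrays scaled to a common median in place of quantile normalization, 33 probes (48.5%) rose against 23.7% of all probes, and the medians were 0.10 for members and −0.06 for all probes. A probe counted as risen or fallen where limma's p was under 0.05 after Benjamini-Hochberg adjustment across the 17616 probes.

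**Figure D1:**
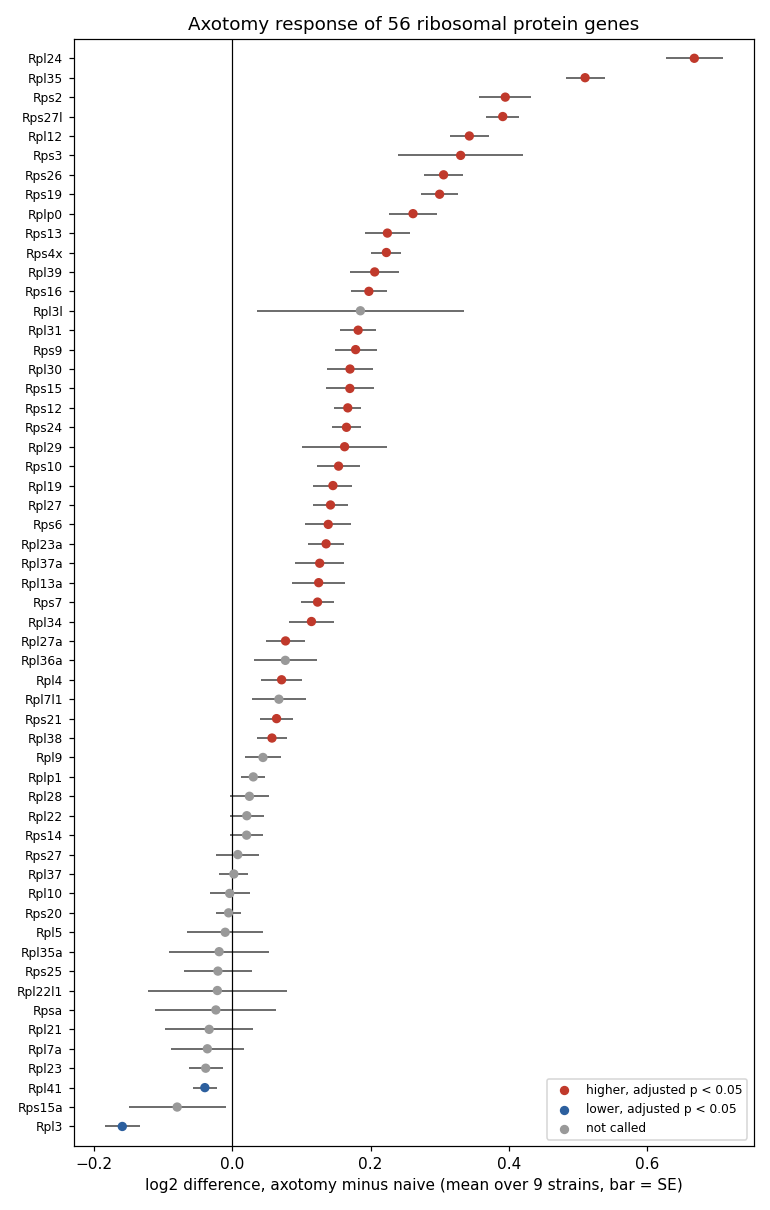
Log2 difference between axotomy and naive ganglia (horizontal axis, mean over 9 strains, bars are 1 standard error) for each of 56 ribosomal protein genes (vertical axis, brightest probe), with red for genes that rose, blue for genes that fell and grey for the rest. The genes run from Rpl3 at −0.16 to Rpl24 at 0.67, and 33 of 56 rose.

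The plot of the response by gene shows a graded series, with 2 large-subunit genes at its upper end. The ranges of levels given with each gene pool the 9 strains. Their overlap therefore also holds differences between strains, while the tests compare axotomy with naive arrays within strains. Rpl24 encodes a large-subunit protein that bridges the subunits, and it is mutated in the belly spot and tail mouse. The log2 level of Rpl24 ran from 11.27 to 12.17 in naive arrays (median 11.68) and from 12.01 to 12.83 after axotomy (median 12.38). The axotomy arrays lay above nearly the whole naive range, with a short overlap. Rpl24 rose by 0.67 (SE 0.04, 1.59-fold, limma adjusted p 1e-22), and it rose in 8 strains taken alone. Rpl35, a protein beside the exit tunnel, ran from 13.87 to 14.48 in naive arrays (median 14.22) and from 14.54 to 14.99 after axotomy (median 14.70). The 35 naive and 35 axotomy arrays did not overlap. Rpl35 rose by 0.51 (SE 0.03, 1.42-fold, limma adjusted p 8.6e-25), and was the 1 member probe that rose in each of the 9 strains taken alone, from 0.36 in NOD to 0.63 in DBA.

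Among the other large-subunit genes, Rpl12, at the base of the ribosomal stalk, had naive log2 levels from 12.76 to 13.27 (median 13.10). After axotomy they ran from 13.10 to 13.63 (median 13.44), overlapping the upper naive arrays. Rpl12 rose by 0.34 (SE 0.03, 1.27-fold, limma adjusted p 5.1e-17), from 0.21 in AJ to 0.45 in WSB. Rplp0 is the scaffold protein of that stalk. Its levels ran from 8.96 to 10.15 in naive arrays (median 9.62) and from 9.37 to 10.22 after axotomy (median 9.86), so the groups overlapped widely. Rplp0 rose by 0.26 (SE 0.03, 1.20-fold, limma adjusted p 1e-09). A further 13 large-subunit genes rose by 0.06 to 0.21 on the log2 scale. Rpl39, a short protein of the exit tunnel, rose by 0.21, Rpl31 by 0.18, Rpl30 by 0.17, Rpl29 by 0.16 and Rpl19 by 0.15. Rpl27, Rpl23a, Rpl37a, Rpl13a and Rpl34 rose by 0.14, 0.14, 0.13, 0.12 and 0.11. Rpl27a, Rpl4 and Rpl38, which is mutated in the tail-short mouse, rose by 0.08, 0.07 and 0.06.

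The 2 genes that fell were both of the large subunit. Rpl3, which lies close to the peptidyl transferase centre, had naive log2 levels from 14.36 to 14.87 (median 14.58) and axotomy levels from 14.25 to 14.65 (median 14.48). The groups overlapped over most of their range. Rpl3 fell by 0.16 (SE 0.03, limma adjusted p 1.6e-07), was lower in each of the 9 strains, from −0.27 in NZO to −0.05 in CAST, and fell in 2 strains taken alone. Rpl41 encodes the smallest ribosomal protein. Its levels ran from 15.21 to 15.50 in naive arrays (median 15.40) and from 15.18 to 15.50 after axotomy (median 15.35). Rpl41 had a difference of −0.04 (SE 0.02, limma adjusted p 0.0488), and the call was lost with median scaling (adjusted p 0.494), with no filter on dim probes (0.0812), and without any 1 of 49 of the 70 arrays. The 12 large-subunit genes that did not pass the test were Rpl10, Rpl21, Rpl22, Rpl23, Rpl28, Rpl35a, Rpl36a, Rpl37, Rpl5, Rpl7a, Rpl9 and Rplp1, with differences from −0.04 (Rpl23) to 0.08 (Rpl36a). Rplp1, an acidic stalk protein, ran from 15.26 to 15.50 naive and from 15.25 to 15.50 after axotomy, with a difference of 0.03 (limma adjusted p 0.13). Quantile normalization gives the brightest probe of every array the same value, here 15.50. Rpl41 and Rplp1 reached this ceiling in both conditions and could not read above it.

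Of the 21 small-subunit genes kept, 15 rose, 0 fell by limma's test (0 also at an unadjusted p under 0.05) and 6 did not pass the test, with a median log2 difference of 0.17. Of the 31 large-subunit genes 17 rose, 2 fell and 12 did not pass, with a median of 0.08. The difference between the subunits was not tested. Rps2, which lies near the mRNA entry channel, had naive log2 levels from 12.27 to 14.47 (median 13.56) and axotomy levels from 12.87 to 14.24 (median 14.02). The ranges, pooled over the strains, overlapped, and 1 naive array, of NOD, lay above every axotomy array. Rps2 rose by 0.39 (SE 0.04, 1.31-fold, limma adjusted p 1.5e-14), from 0.19 in NOD to 0.51 in DBA, and rose in 8 strains taken alone.

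Rps26, at the mRNA exit channel, ran from 13.11 to 13.68 in naive arrays (median 13.45) and from 13.46 to 14.00 after axotomy (median 13.75). Rps26 rose by 0.31 (SE 0.03, 1.24-fold, limma adjusted p 4.3e-15), from 0.14 in NOD to 0.47 in DBA. Rps19 is the ribosomal protein gene most often mutated in the human disorder Diamond-Blackfan anaemia. It ran from 13.34 to 14.10 in naive arrays (median 13.63) and from 13.55 to 14.39 after axotomy (median 13.94), again with overlap. Rps19 rose by 0.30 (SE 0.03, 1.23-fold, limma adjusted p 1.4e-15), from 0.15 in NOD to 0.50 in AJ. Rps13 ran from 12.63 to 13.14 in naive arrays (median 12.94) and from 12.84 to 13.44 after axotomy (median 13.16). Rps13 rose by 0.22 (SE 0.03, 1.17-fold, limma adjusted p 1.7e-08). Rps3, a protein of the mRNA entry channel, ran from 9.29 to 13.32 in naive arrays (median 12.78) and from 9.52 to 13.61 after axotomy (median 13.12), with wide overlap. Rps3 rose by 0.33 (SE 0.09, 1.26-fold, limma adjusted p 0.0013). It was higher in all 9 strains and passed the test in none of them taken alone.

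Rps6, whose phosphorylation by S6 kinase is the usual readout of mTOR signalling, ran from 12.91 to 13.51 in naive arrays (median 13.22) and from 12.98 to 13.73 after axotomy (median 13.36). Rps6 rose by 0.14 (SE 0.03, 1.10-fold, limma adjusted p 0.00026), with strains from −0.10 in 129 to 0.27 in WSB. The arrays measured its mRNA and not its phosphorylation. The other small-subunit genes that rose were Rps4x (0.22), Rps16 (0.20), Rps9 (0.18), Rps15 (0.17), Rps12 (0.17), Rps24 (0.17), Rps10 (0.15), Rps7 (0.12) and Rps21 (0.06). The 6 that did not pass the test were Rps14, Rps15a, Rps20, Rps25, Rps27 and Rpsa, with differences from −0.08 (Rps15a) to 0.02 (Rps14). Rpsa, also known as a laminin receptor, ran from 5.85 to 7.35 naive and from 5.87 to 7.81 after axotomy, with a difference of −0.02 (limma adjusted p 0.83).

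Among the paralogs, 1 of the 4 kept rose. Rps27l, a paralog of Rps27 and a target of p53, ran from 12.59 to 13.68 in naive arrays (median 13.24) and from 13.19 to 14.03 after axotomy (median 13.63). The upper naive arrays overlapped the lower axotomy arrays. Rps27l rose by 0.39 (SE 0.02, 1.31-fold, limma adjusted p 5.5e-23), from 0.20 in AJ to 0.50 in C3H, while Rps27 itself had a difference of 0.01 (limma adjusted p 0.85). Rpl22l1, the paralog of Rpl22, ran from 7.27 to 9.05 naive and from 7.24 to 8.94 after axotomy, with a difference of −0.02 (limma adjusted p 0.87). Rpl7l1 had a difference of 0.07 (limma adjusted p 0.14). Rpl3l, the striated-muscle paralog of Rpl3, was above background on 24 naive and 32 axotomy arrays, with a difference of 0.19 (SE 0.15, limma adjusted p 0.29). No marker of the skeletal muscle list passed the test (0 of 4, smallest limma adjusted p 0.327). Their summed linear level varied widely between arrays, from 179 to 10501.5 in naive and from 206 to 7379 in axotomy arrays. The part of muscle RNA in the Rpl3l values was not tested.

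Of the 15 genes with several probes, 11 had more than 1 kept. In 9 of these 11 the probes had the same call, in 2 (Rpl27a and Rps9) 1 probe rose and the other did not pass, and in 0 were the calls opposite. The sizes of the response were furthest apart in 3 genes. Rpl31 rose by 0.18 on its brightest probe and by 0.48 on its second. Rpl38 rose by 0.06 and 0.40, and Rps24 by 0.17 and 0.60. Signal near the top of the scale was set against the response over all members. In 15 probes the brightest array reached the midpoint of the intensity scale (26974) or more, and of these 6 rose, 2 fell and 7 did not pass the test, with a median log2 difference of 0.03. Of the other 53 probes 33 rose, 0 fell by limma's test (0 also at an unadjusted p under 0.05) and 20 did not pass, with a median of 0.14. The highest intensity in the table was 53947, and whether the scanner saturated was not tested.

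**Figure D2:**
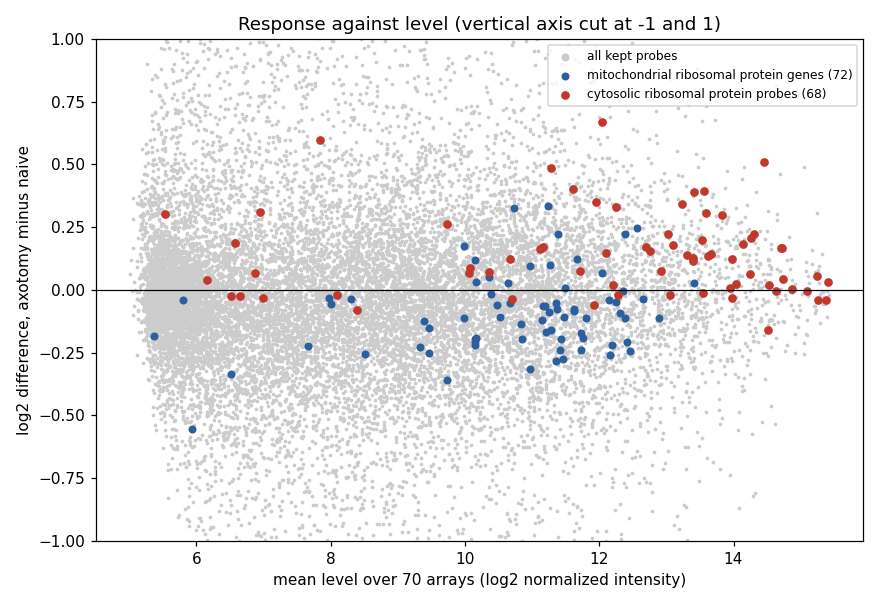
Log2 difference between axotomy and naive ganglia (vertical axis, cut at −1 and 1) against the mean log2 normalized intensity over 70 arrays (horizontal axis), with all kept probes in grey, 72 mitochondrial ribosomal protein genes in blue and 68 cytosolic ribosomal protein probes in red. Most cytosolic probes lie above 0 (median 0.12) and most mitochondrial ones below it (median −0.11).

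The genes of the mitochondrial ribosome, which translates the few mRNAs of the mitochondrial genome, gave the opposite balance, as the plot of response against level shows. Of 72 kept Mrpl and Mrps genes 11 rose, 41 fell and 20 did not pass the test, with a median log2 difference of −0.11. Mrpl54 fell by 0.21, Mrps12 by 0.24 and Mrps9 by 0.32, while Mrpl9 rose by 0.33. Of 57 kept ribosome biogenesis genes 25 rose and 8 fell (median 0.09). Riok3, a kinase of small-subunit maturation, rose by 0.86, and Rrp12, a nuclear export factor of the subunits, by 0.73. Eif6 and Sbds, both factors of large-subunit maturation, rose by 0.34 and 0.36. Fau and Rpl36al, ribosomal proteins under other symbols, rose by 0.16 and 0.13.

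Of 28 kept translation initiation genes 15 rose and 5 fell, with a median log2 difference of 0.10. Eif1a rose by 0.61, Eif3b by 0.55, Eif4e2 by 0.46 and the helicase gene Eif4a1 by 0.32. Of 16 elongation and termination genes 9 rose and 3 fell (median 0.18). The release factor genes Gspt1 and Etf1 rose by 0.43 and 0.26, and Eef1a2, the elongation factor form of mature neurons and muscle, fell by 0.22. Of 32 genes of the mTOR pathway 6 rose and 16 fell (median −0.13). The list mixes activators of mTOR, such as Rragb and Lamtor4, with inhibitors, such as Nprl2, Tsc1 and Tsc2. Its counts and median therefore give no direction of mTOR signalling, which was not measured. Eif4ebp1, the translation repressor that mTOR phosphorylates, rose by 1.32, and Rragb, Nprl2 and Lamtor4, of the lysosomal branch that senses amino acids, fell by 0.54, 0.34 and 0.27. Over all probes 26.4% rose and 33% fell in the same comparison.

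**Figure D3:**
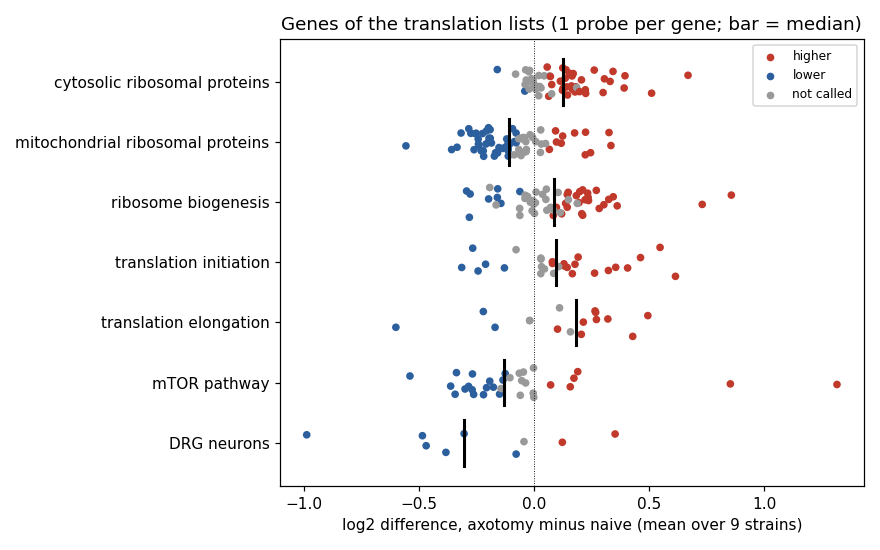
Log2 difference between axotomy and naive ganglia, mean over 9 strains (horizontal axis), for the genes of 7 lists (vertical axis), 1 point per gene, with red for genes that rose, blue for genes that fell, grey for the rest and a black bar at each list's median. Medians are 0.12 for the cytosolic and −0.11 for the mitochondrial ribosome, 0.09 for ribosome biogenesis, 0.10 for initiation, 0.18 for elongation, −0.13 for the mTOR pathway and −0.30 for DRG neuron markers.

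The direction of the response was shared by the strains to different degrees. Of the 68 probes 19 (27.9%) were higher in all 9 strains, against 14.5% of all probes, and 1 (Rpl3) was lower in all 9, against 18.3% of all probes. In at least 7 strains taken alone, 12 member probes rose (17.6%), against 7.15% of all probes. With the 56 genes averaged on each array, the mean log2 level ran from 12.50 to 12.84 in naive and from 12.70 to 12.93 in axotomy arrays. It was higher after axotomy in all 9 strains, by 0.05 in NZO, 0.10 in AJ, 0.11 in 129, 0.13 in C3H, NOD and WSB, 0.14 in C57, 0.16 in DBA and 0.17 in CAST. The C3H value was 0.07 without C3H_NAIVE replicate 1, and the NZO value was 0.03 without NZO_AX5D replicate 2. The naive and axotomy arrays did not overlap in 129, CAST, DBA, NOD and WSB and overlapped in the other 4 strains. Arrays in runs of 8 neighbouring columns of the deposited table resembled each other. Within the 9 runs the axotomy arrays were on average higher by 0.03 to 0.20 (1 run held 1 axotomy array). These differences set all naive against all axotomy arrays of a run, whatever their strain. They therefore also hold differences between strains.

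Taken strain by strain, the number of the 68 member probes that rose was 25 in CAST (36.8%, against 12.8% of all probes), 24 in WSB (35.3% against 17.1%) and 23 in DBA (33.8% against 14.8%). It was 19 in C3H (27.9% against 11.5%), 14 in 129 (20.6% against 13.3%), 14 in C57 (20.6% against 9.71%) and 14 in NOD (20.6% against 10.2%). It was 11 in NZO (16.2% against 12.9%) and 8 in AJ (11.8% against 9.01%), both close to the background. These counts were lower with median scaling, at 8 in CAST (11.8% against 10.7% of all probes), 13 in WSB (19.1% against 14.3%) and 13 in DBA (19.1% against 11.3%). The other strains then had 7 in C3H (10.3% against 8.66%), 7 in 129 (10.3% against 9.61%), 4 in C57 (5.88% against 6.62%), 6 in NOD (8.82% against 7.51%), 9 in NZO (13.2% against 12.9%) and 3 in AJ (4.41% against 7.0%). The excess over the background in single strains thus depended on the scaling. The count also moved when 1 array was left out, to 10 in C3H without C3H_NAIVE replicate 1 and to 13 in AJ without AJ_AX5D replicate 2. In NZO it was 6 without NZO_AX5D replicate 2, 7 without NZO_AX5D replicate 3 and 6 without NZO_NAIVE replicate 2.

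Few member probes fell in any strain. The number was 3 in NZO (11.7% of all probes fell there), 1 in 129 (16.5% of all), 1 in C3H (12.7%) and 1 in C57 (11.1%). By limma's test 0 fell in AJ (7.67% of all probes), CAST (15.1%), DBA (15.4%), NOD (12.2%) and WSB (17.9%). At an unadjusted p under 0.05 those strains had 1, 1, 0, 2 and 1.

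**Figure D4:**
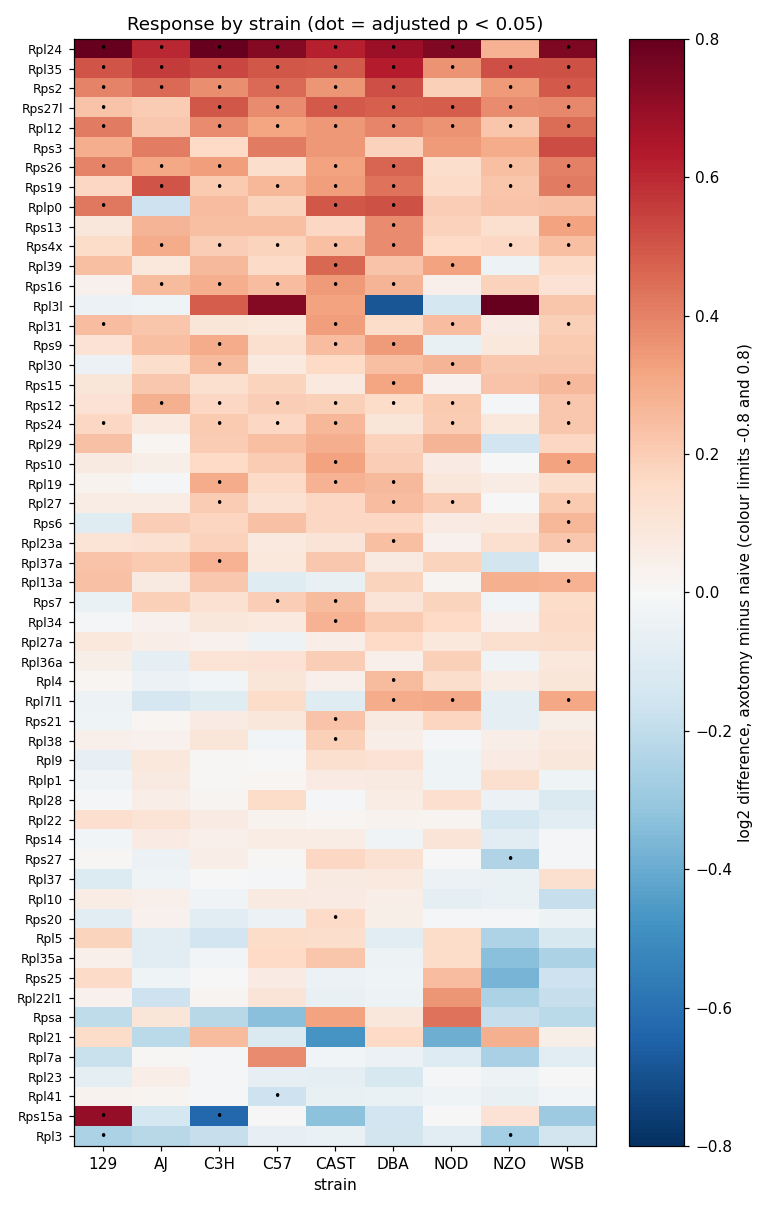
Log2 difference between axotomy and naive ganglia in each of 9 strains (columns) for 56 ribosomal protein genes (rows, ordered by their mean response), with red for higher and blue for lower (colour limits −0.8 and 0.8) and a dot where limma's adjusted p was under 0.05. Rpl35 is dotted in all 9 strains, while Rps15a is red in 129 and blue in C3H.

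The test of a strain difference in the response passed for 3 of the 68 probes (4.41%), against 14.3% of all probes. The first was the second, dimmer probe of Rps24, a small-subunit protein (limma F-test, adjusted p 0.00347). Its log2 difference was 1.10 in DBA, 0.93 in 129, 0.81 in NZO and −0.05 in CAST. In CAST the probe was not above background on any naive or axotomy array (5.09 to 5.92 and 5.10 to 5.59), so no response can be read there. Without the CAST arrays the Rps24 probe did not pass the test (adjusted p 0.103). The brightest Rps24 probe was above background on all CAST arrays, and its response did not pass the test of a strain difference (adjusted p 0.62).

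The second was Rplp0 (limma F-test, adjusted p 0.0189). In AJ its log2 level was 9.76 to 10.15 on the naive and 9.71 to 9.79 on the axotomy arrays, a difference of −0.16. In DBA it was 9.33 to 9.62 naive and 9.81 to 10.05 after axotomy, with no overlap, a difference of 0.51. The AJ response was 0.48 below the mean of the other 8 strains (limma adjusted p 0.03). The call was lost with median scaling (0.16) and without AJ_NAIVE replicate 1 (0.0853). The third was Rps15a, with differences of 0.70 in 129 (limma adjusted p 0.006) and −0.63 in C3H (0.018). In 129 its level was 6.86 to 7.88 naive and 7.95 to 8.16 after axotomy, and in C3H 7.74 to 8.14 naive and 6.21 to 7.80 after axotomy. This call (adjusted p 0.0362) was lost with the authors' matrix (0.0714), with no background correction (0.0704), with median scaling (0.0519) and without any 1 of 7 arrays (up to 0.125). The next genes by p, Rpl7l1 (adjusted p 0.0792), Rps19 (0.122), Rps27l (0.141) and Rpl21 (0.179), did not pass.

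The naive level of the members differed between strains about as often as that of other genes. The F-test passed for 39 of 68 member probes (57.4%), against 56.3% of all probes. When CAST was set against the average of the 8 remaining strains, 8 member probes (11.8%) were higher and 18 (26.5%) were lower, against 25.3% and 18% of all probes. The probe sequences were not used here, and whether strain variants under a probe change its reading was not tested. Ribosomal protein genes also have many processed pseudogenes, whose transcripts cannot be told apart from the parent's here.

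The 6 genes with the smallest p for a strain difference are given here as log2 levels of naive arrays. Rps15a (limma F-test, adjusted p 1.8e-25) fell into a higher set of strains, with means of 9.54 in AJ, 9.54 in NZO, 9.65 in NOD and 9.89 in C57, and a lower set from 6.66 in CAST to 7.92 in C3H. The SD within a strain was 0.43 at most. Rps2 (adjusted p 9.7e-21) was lowest in CAST (12.57 ± 0.24, SD, n = 4) and WSB (12.62 ± 0.13, n = 4) and highest in NOD (13.98 ± 0.33, n = 4). CAST was 0.91 and WSB 0.85 below the mean of the other 8 strains. Rps15, a small-subunit protein near the decoding site, read 11.53, 11.19, 11.84 and 11.64 on the CAST arrays and 13.24, 13.20, 13.21 and 13.27 on the WSB arrays (adjusted p 8e-20). The CAST mean was 1.20 below and the WSB mean 0.69 above the mean of the others (limma adjusted p 2.5e-21 and 4.7e-11).

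Rpl4, a large-subunit protein of the exit tunnel, read 11.11, 11.26, 11.11 and 11.20 on the naive CAST arrays, while the means of the other strains lay between 10.06 and 10.29. CAST was 0.96 above the mean of the others (limma adjusted p 5.9e-20). The other 2 genes, Rps3 and Rpl29, each had 2 kept probes. The brightest Rps3 probe was low in C3H (10.02, 10.83, 10.82 and 10.50), CAST (11.13, 9.29, 11.23 and 10.26) and DBA (10.20, 10.28, 10.22 and 11.21), and strain means of the other 6 lay between 12.72 and 13.06. The second Rps3 probe did not pass the test (limma adjusted p 0.261), with strain means from 11.28 to 11.98. The axotomy response was 0.33 on the first and 0.35 on the second.

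The brightest Rpl29 probe was highest in CAST (12.48, 12.39, 12.29 and 12.57) and C57 (12.11, 12.02, 11.91 and 12.16), with strain means from 10.43 to 10.85 elsewhere. The second Rpl29 probe was highest in C57 (10.74, 10.82, 10.95 and 11.03), 4.63 above the mean of the others (limma adjusted p 2.4e-36). In CAST the second probe had a mean of 6.86, and the 7 strains other than C57 had means from 5.98 to 6.56. Against those 7 strains CAST was higher by 1.75 on the brightest Rpl29 probe and by 0.70 on the second (limma adjusted p 2.3e-17 and 5.2e-05, a contrast added after the data were seen). On naive arrays both probes of Rpl29, a large-subunit gene, thus had their highest strain means in CAST and C57. The amounts differed, and these 2 strains were in opposite order. The second probe was above background on only 29 naive arrays. On it NOD_NAIVE replicate 3 read 7.08, above every naive CAST array (6.77 to 6.92). After axotomy it read 6.47 to 7.02 in CAST, overlapping NZO (6.66 to 7.11) and WSB (6.53 to 7.17). A higher level on both probes was therefore clear for C57 only.

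**Figure D5:**
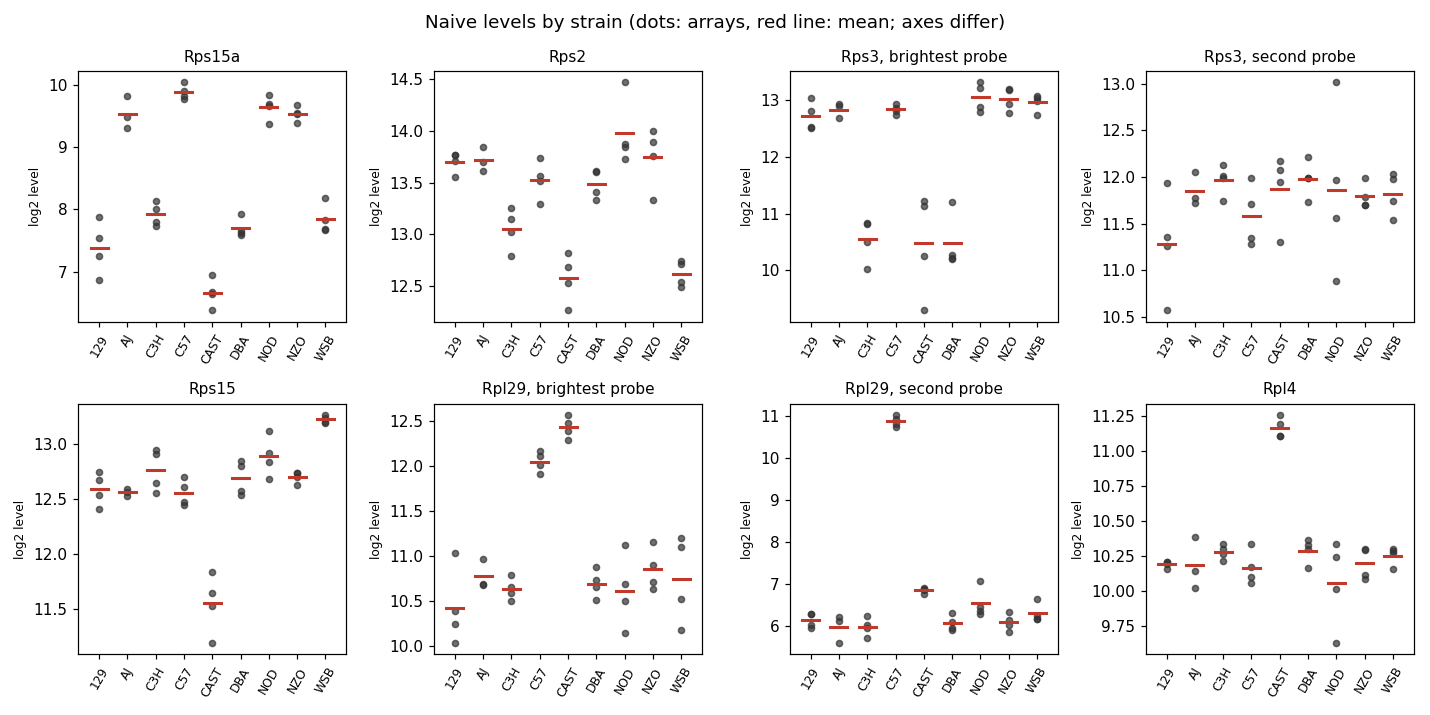
Log2 normalized intensity of naive arrays (vertical axes, which differ between panels) by strain (horizontal axes) for the kept probes of the 6 genes with the smallest p for a strain difference, with a dot per array and a red line at the strain mean. Rps15a splits into 2 sets of strains, and the 2 probes of Rps3 give different patterns.

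Once the group means were removed, the 56 genes still varied together over the 70 arrays. The mean pairwise correlation of residuals was 0.13, against a mean of 0.005 over all kept probes. Of the pairs of member genes 67.4% were above 0, a share that was not counted over all probes. No set of equally bright probes was compared. The genes on an array share its RNA sample, labelling and hybridisation, so this is a description of these arrays.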

How the data were processed

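Total RNA of naive and axotomised DRGs was measured on Illumina arrays, as the labels state. The authors deposited a linear intensity and a detection p-value per probe, not normalized, and a matrix of log2 values, used only as an alternative. The sources used here do not name the software. Of 72 array columns, 2 (AJ) match no labelled sample and were left out of every step.

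The detection p-values served to correct the background (neqc). An offset of 16, quantile normalization and a log2 transform followed (limma 3.58.1, R 4.3.3). Quantile normalization assumes 1 shared distribution. Probes with detection p under 0.05 on at least 3 arrays were kept (17616). limma fitted 1 mean per group (18) with trended, moderated variances (52 residual degrees of freedom, prior 8.91). The fit was tested on simulated data. P-values are two-sided and Benjamini-Hochberg adjusted across the kept probes. Gene symbols come from the platform annotation (23978 probes with 1 symbol, 0 with several, 1719 with none).

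Members, lists and tests were chosen with earlier results of these data known. Named genes were the 10 with the highest and up to 10 with the lowest difference among risen or fallen genes, the paralogs, Rps6, Rplp0, Rplp1, Rplp2 and Rpsa, the 6 with the lowest p in each F-test, and up to 4 of each other list. Further genes were picked with their values in view. The alternatives covered median scaling, uncorrected background, the matrix of the authors, other filters, 1 probe per gene, replicate and run blocks, and leaving out CAST or each array.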

Additional observations from a re-analysis of the deposited data

Results flagged for a closer look

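The 16 groups of 4 arrays were examined for an array far from the rest in the mean of the ribosomal protein genes, and the naive groups of 4 in 6 single genes, 64 tests in all. In 2 of them an array stood out, where chance alone marks about 1 in 20. The mean of the 56 ribosomal protein genes was 12.50 on C3H_NAIVE replicate 1, against 12.74 on the nearest other array of its group. The brightest Rps3 probe read 11.21 on DBA_NAIVE replicate 4, against 10.28 on the nearest. The axotomy response differed between strains for the second Rps24 probe (limma F-test, adjusted p 0.00347), Rplp0 (0.0189) and Rps15a (0.0362). On the CAST arrays this Rps24 probe read no higher than background. Without CAST the adjusted p were 0.103 for Rps24, 0.0433 for Rplp0 and 0.0326 for Rps15a.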

How the results depend on the processing

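Over the alternatives, 33 to 41 member probes rose as a mean over the strains (38 to 40 with 1 array left out), and their median log2 difference was 0.07 to 0.12 (0.12 to 0.13). With median scaling 1 probe fell, and 7 rose in 129, 3 in AJ, 7 in C3H, 4 in C57, 8 in CAST, 13 in DBA, 6 in NOD and 13 in WSB. Summed over the strains, 2 calls of a fall were then made, both among the 6 reported. The response differed between strains for 1 probe and the naive level for 25. Without strain CAST 1 probe fell, and the second Rps24 probe no longer differed between strains (adjusted p 0.103, looked at after the data were seen). With the runs of neighbouring columns as a block the response differed for 5. The share of all probes with a strain difference was not counted under median scaling or with the run block. The member counts there therefore have no background beside them. Leaving out each array in turn gave 1 to 2 fallen probes, 6 to 13 risen in AJ, 10 to 20 in C3H and 6 to 12 in NZO, and 2 to 5 with a strain difference in response (5 without WSB_NAIVE replicate 1 or 2 or CAST_NAIVE replicate 3). The cause of these changes was not tested. Replicate numbers were not used to pair the samples. Same-numbered naive and axotomy arrays had residual correlations from −0.19 to 0.39, above 0.1 in 10 of 34 pairs. No such pair lay in the same run of columns, where arrays of different groups resembled each other more (mean 0.15, against −0.02 between runs). These correlations therefore cannot decide whether the numbers mark pairs. With a replicate block 39 probes rose and 2 fell, and no count of calls moved by over 1.5 times. The number of arrays limits precision, and signal near background or near the top of the scale limits the smallest differences.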
